A study of Mus musculus with 54 samples.

Results

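The cerebellum of mice with the label RnaseH2B Nes-cre was compared with that of mice labelled Control at postnatal day 28 (P28). All P28 libraries whose labels name Rnaseh2b without Atm were taken, together with all P28 controls, which gave 10 of the 54 libraries of the series, 5 per group. The series holds whole mouse cerebellum at P5, P28 and 9 weeks, with deletions of Rnaseh2b, Atm and p53 alone or in pairs. The P28 RNA was poly-A selected, and the labels describe the source as cerebellum with no separation of cell types. Nes-cre is a Cre recombinase driven by Nestin sequences, which are active in neural progenitors, so that neurons and the glia of neural origin can lose a floxed gene while microglia, vessels and meninges keep it. The labels give neither the Rnaseh2b allele, nor the strain, nor whether the controls carried Cre or a floxed allele. Beside this comparison stand 2 others whose differences use none of its 10 libraries. They are P28 mice labelled RnaseH2B,Atm Nes-cre against P28 mice labelled Atm Nes-cre, 5 per group, and RnaseH2B Nes-cre against Control at 9 weeks, 7 per group, from total RNA.

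Rnaseh2b encodes a subunit of RNase H2, the enzyme that opens DNA at ribonucleotides left behind by DNA polymerases and that also cuts RNA paired with DNA. Cells without it keep ribonucleotides in their genome, which can lead to DNA breaks and to activation of p53. In people, mutations in the genes of its subunits cause Aicardi-Goutieres syndrome, a brain disease with raised type I interferon signalling. In the cerebellum, granule neurons are by far the most numerous neurons, Purkinje cells are the output neurons, and the interneurons of the molecular layer and the Golgi cells are inhibitory.

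The 10 libraries held 24086855 (Rnaseh2b 4) to 86230827 reads in genes. Levels are given below as log2 CPM, the log2 of a gene's reads scaled to the same library total, in which a step of 1 is a doubling, for each library from 1 to 5 of its group. The number of a library is only its name. No label says that the libraries of a group came from separate animals, so p-values measure the spread between these samples, which may be technical. Control 2 stood apart from the other controls. Its chi-square per degree of freedom against each of them was 54.9 to 86.4, and that among the other controls was 9.66 to 20. A list of 14 midbrain markers varied between libraries of the same group, with a mean deviation from the controls of 0.97, −1.57, 0.26, 0.67 and −0.34 log2 CPM in controls 1 to 5. It was 0.72, 1.84, 1.56, 1.76 and −1.12 in Rnaseh2b 1 to 5, so the groups overlapped. An index of GC content was computed in each library as the median deviation of the 20% of genes with the highest GC content minus that of the 20% with the lowest. It was 0.14, −0.38, 0.09, 0.08 and 0.07 in controls 1 to 5 and −0.50, −0.34, −0.15, −0.04 and −0.19 in Rnaseh2b 1 to 5, so all Rnaseh2b libraries lay below the controls other than control 2. With this index as a covariate, added after the data were seen, the median log2 difference of the interneuron list below went from −0.28 to −0.16, that of the GABA-A receptor list from 0.21 to 0.03 and that of the interferon-stimulated genes from 0.32 to 0.21. With the midbrain mean as a further covariate these were −0.19, 0.06 and 0.07. Xist, which is transcribed from the inactive X chromosome of females, was at 9.79 and 9.88 log2 CPM in controls 1 and 2 and at 9.87 in Rnaseh2b 1, and at 0.86 or less in the other 7 libraries.

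Rnaseh2b itself was measured at 2.85, 2.96, 2.74, 2.78 and 2.86 log2 CPM in the controls and at 0.94, 1.33, 1.29, 0.99 and 1.06 in the Rnaseh2b libraries. Every library labelled Rnaseh2b was below every control. The mean was 30.4% of the control level, a log2 difference of −1.72 ± 0.14 (SE; limma, adjusted p = 2.1e-06). It was also lower at 9 weeks, by a log2 difference of −1.02 (adjusted p = 3.1e-05), and on the Atm background, by −1.68. The catalytic subunit gene Rnaseh2a differed by 0.05 (adjusted p = 0.47). Rnaseh2c, the third subunit, was at 5.30, 4.29, 5.48, 5.18 and 5.10 in the controls and at 4.07, 4.18, 4.26, 4.85 and 4.39 in the Rnaseh2b libraries. Control 2 lay within the range of the Rnaseh2b libraries for this gene, and the other controls lay above it. Its difference of −0.72 missed the threshold with all libraries (adjusted p = 0.0643) and passed it without control 2 (adjusted p = 0.0124). Of 16 tested genes for RNase H enzymes and the repair of ribonucleotides, Rnaseh2b was the 1 gene called.

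Of 16530 genes tested, 861 (5.21%) were called at an adjusted p below 0.05 (limma with Benjamini-Hochberg adjustment over all genes tested), 471 of them higher (2.85%) and 390 lower (2.36%) in the Rnaseh2b libraries. Differences were small. The median size among called genes was 0.33 on the log2 scale, 199 called genes passed 0.5, and 24 passed 1. In 564 of the called genes the 2 groups did not overlap, 280 higher and 284 lower. Over all genes tested, 3.43% were higher and 4.77% lower without overlap. The count of calls depended on single libraries: it was 2564 without control 2 and 187 without control 5. Of the 2564, 1282 were higher and 1282 lower, so a gene that passes only without control 2 does so where calls are more frequent in general. A core of 166 genes, 98 higher and 68 lower, was called in each of the 10 fits that left out 1 library.

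After Rnaseh2b, the falls with the smallest adjusted p were those of Kit, Ntn1 and Sla. Kit encodes the receptor tyrosine kinase that marks molecular layer interneurons. It was at 7.86, 8.06, 7.94, 7.94 and 7.92 log2 CPM in the controls and at 7.38, 7.35, 7.31, 7.21 and 7.42 in the Rnaseh2b libraries. Every Rnaseh2b library lay below every control, with a narrow spread in both groups, and the mean was 65.5% of the control level (log2 difference −0.61 ± 0.05, limma adjusted p = 3.2e-06). In whole tissue, fewer cells of a type and less RNA per cell cannot be told apart, here or for any gene below. Ntn1, which encodes the axon guidance cue netrin-1, was at 6.82, 6.66, 6.77, 6.76 and 6.77 in the controls and at 5.75, 5.87, 5.93, 5.79 and 6.14 in the Rnaseh2b libraries. Its groups were far apart, at 55.1% of the control level (−0.86 ± 0.08, adjusted p = 4.4e-06).

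Sla encodes an adaptor protein of immune cell receptor signalling that is also transcribed in neurons. It was at 5.36, 5.44, 5.26, 5.24 and 5.40 in the controls and at 4.25, 4.39, 4.38, 4.34 and 4.66 in the Rnaseh2b libraries, which were all lower (52.3% of control, −0.94 ± 0.09, adjusted p = 4.4e-06). Hkdc1, a hexokinase family gene, was at 2.70, 2.60, 3.0, 2.69 and 2.73 in the controls and at 1.6, 1.85, 1.91, 2.0 and 2.20 in the Rnaseh2b libraries. Its groups did not overlap either (56.1% of control, −0.84 ± 0.12, adjusted p = 0.00138). Trim67, a ubiquitin ligase gene of the nervous system, fell to 68.8% of the control level (adjusted p = 2.1e-05). Nkain1, whose product binds the sodium pump, fell to 72% of it (adjusted p = 7.3e-05). Prdm8, a transcriptional repressor gene, was at 4.89, 4.61, 5.09, 4.98 and 5.02 in the controls and at 3.85, 3.97, 3.88, 4.19 and 4.27 in the Rnaseh2b libraries, again apart (54.1% of control, adjusted p = 0.00324).

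The other genes among the 15 largest falls with groups apart had log2 differences between −0.92 and −0.61. They were Asgr1 (−0.80, a lectin receptor gene best known from liver), Echdc2 (−0.73), the secreted protease genes Adamts15 (−0.72) and Adamts16 (−0.63), Cidea (−0.69, of lipid droplets), the sorting receptor gene Sorcs3, the neuropeptide gene Npy, and Msh5 (of meiotic recombination). H2-K2 (−0.78) is a class I histocompatibility gene whose close copies can share its reads, so that its value is uncertain. Npy was at 3.36, 3.02, 3.58, 2.83 and 3.20 in the controls and at 2.01, 2.45, 2.54, 2.79 and 1.63 in the Rnaseh2b libraries. The groups touched nearly, at 2.83 in control 4 and 2.79 in Rnaseh2b 4. Its call (−0.92, adjusted p = 0.0218) was lost when any 1 of 4 libraries was left out, controls 1, 3 and 5 and Rnaseh2b 1, with an adjusted p of 0.0156 to 0.0635 over the 10 fits. The call of Sorcs3 was lost without control 5, Rnaseh2b 1 or Rnaseh2b 2 (adjusted p up to 0.058), and that of Msh5 without Rnaseh2b 2 (0.0525).

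**Figure D1:**
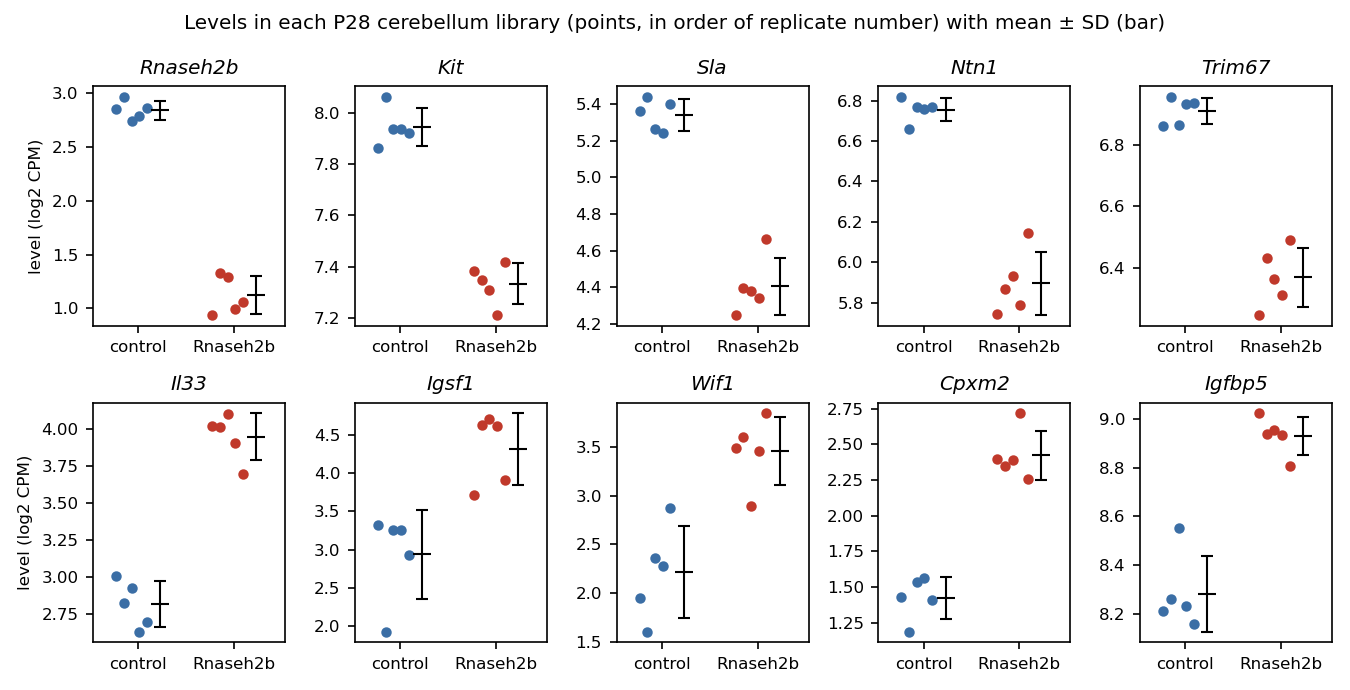
Each panel shows 1 gene in log2 CPM (y axis, with its own range that does not start at 0) for the 5 control (blue) and 5 Rnaseh2b (red) libraries at P28, in order of library number, with mean ± SD as the bar. The 5 genes of the upper row lie below the controls and those of the lower row above them in all 5 Rnaseh2b libraries, and for Igsf1 control 2 lies lowest at 1.93.

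Among the rises, Il33 had the smallest adjusted p. It encodes interleukin-33, a nuclear cytokine that astrocytes and oligodendrocytes hold and release on damage. Il33 was at 3.0, 2.82, 2.93, 2.63 and 2.69 log2 CPM in the controls and at 4.02, 4.02, 4.11, 3.91 and 3.70 in the Rnaseh2b libraries. All 5 Rnaseh2b libraries were higher, with a mean at 220% of the control level (1.14 ± 0.10, adjusted p = 3.3e-06). It was the 1 called gene of 12 tested genes for NF-kB factors, chemokines and cytokines. Igfbp5, which encodes a binding protein of insulin-like growth factors, was at 8.21, 8.26, 8.55, 8.23 and 8.16 in the controls and at 9.02, 8.94, 8.95, 8.93 and 8.80 in the Rnaseh2b libraries. The groups did not overlap, although control 3 lay above the other controls (157% of control, 0.65 ± 0.07, adjusted p = 4.3e-05).

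Wif1, a secreted inhibitor of Wnt signalling, was at 1.95, 1.61, 2.36, 2.28 and 2.87 in the controls and at 3.49, 3.60, 2.90, 3.46 and 3.84 in the Rnaseh2b libraries. Control 5 and Rnaseh2b 3 nearly met, and the others were well apart (237% of control, 1.24 ± 0.23, adjusted p = 0.00578). Cpxm2, a carboxypeptidase-like gene, was at 1.43, 1.19, 1.53, 1.56 and 1.41 in the controls and at 2.40, 2.35, 2.39, 2.72 and 2.26 in the Rnaseh2b libraries. Every Rnaseh2b library was higher (200% of control, log2 difference 0.998 ± 0.11, adjusted p = 5.5e-05). Igsf1, an immunoglobulin superfamily membrane protein, was at 3.32, 1.93, 3.25, 3.26 and 2.92 in the controls and at 3.71, 4.63, 4.70, 4.62 and 3.92 in the Rnaseh2b libraries. Control 2 was by far the lowest, and the groups stayed apart with the other 4 controls (260% of control, 1.38 ± 0.24, adjusted p = 0.00514, and 0.0031 to 0.0206 with 1 library left out).

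The remaining rises among the 15 largest lay between 0.66 and 1.48. They included Mcf2 (1.05, at 0.71 to 1.6 log2 CPM in the controls and 1.94 to 2.51 in the Rnaseh2b libraries), Fgf10 (0.74, a growth factor), Lin28b (0.72, an inhibitor of let-7 maturation), Vstm2a (0.72), St6gal2 (0.66) and Zmat4 (0.66). Gabra5, an extrasynaptic GABA-A receptor subunit, had the largest of these differences. It was at 1.35, −0.70, 1.29, 1.12 and 0.06 in the controls and at 1.52, 2.65, 2.29, 2.37 and 1.68 in the Rnaseh2b libraries. Its groups were separated by a narrow gap, and controls 2 and 5, which were lowest for the midbrain markers among the controls, were also lowest for Gabra5. Rnaseh2b 5, which was lowest for the midbrain markers in its group, was at 1.68. Whether adjoining tissue has a part in this difference was not tested. Its call (1.48 ± 0.36, adjusted p = 0.0262) was lost without control 5, Rnaseh2b 2 or Rnaseh2b 3 (adjusted p up to 0.0825). Kcnf1 (1.17, adjusted p = 0.038) was lost in 7 of the 10 fits (up to 0.113), Creg2 (0.70, 0.0187) without control 5, Rnaseh2b 2 or Rnaseh2b 3, and Rassf4 (0.70, 0.0171) without Rnaseh2b 2 or Rnaseh2b 3.

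Genes were then read by lists of cell type markers and pathways. Over the 42 lists 611 genes were tested, of which 25 were higher and 13 lower, beside 2.85% and 2.36% of all genes tested. In the fits that left out 1 library the count went from 12 without control 5 to 77 without control 2. The 12 list members called in all 10 such fits were Aqp4, Cntn2, Gja1, Grik3, Grik4, Igf1, Igf2, Il33, Kit, Pmaip1, Rnaseh2b and Tfap2a.

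Inhibitory interneurons were the list with the most calls in 1 direction. Of 21 tested markers 7 fell and 0 rose, and the median difference was −0.28, beside −0.004 over all genes tested. As a list mean, Rnaseh2b 1 to 5 deviated from the controls by −0.33, −0.20, −0.15, −0.15 and −0.33 log2 CPM, and control 2, at −0.15, was as low as Rnaseh2b 3 and 4. Among the 7 were Kit, Npy, Sorcs3, Tfap2a (−0.62, a transcription factor of the interneuron lineage), Nos1 (−0.50, neuronal nitric oxide synthase) and Ptprk (−0.35, a receptor phosphatase). Tfap2a was at 2.99, 3.38, 3.50, 3.25 and 3.35 log2 CPM in the controls and at 2.62, 2.61, 2.66, 2.47 and 3.0 in the Rnaseh2b libraries. Control 1 and Rnaseh2b 5 met at about the same level, and the other libraries were apart (limma adjusted p = 0.00374, and 7.2e-04 to 0.016 with 1 library left out).

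The weaker interneuron calls depended on the libraries used. Nos1 was at 7.78, 8.02, 7.85, 7.52 and 7.66 in the controls and at 7.28, 7.48, 7.45, 7.28 and 6.86 in the Rnaseh2b libraries. Rnaseh2b 5 was the lowest and the groups were just apart, and the call was lost in 8 of the 10 fits (adjusted p = 0.0397, up to 0.0848). The call of Ptprk was lost in 7 of them (0.027, up to 0.0739). Gad1, which makes GABA, differed by 0.03, and Pvalb, a calcium buffer of interneurons and Purkinje cells, by 0.04, with neither called. Of the 21 markers 7 had positive differences. The 7 lower calls became 2 without control 5 or Rnaseh2b 1, and 3 without control 1, control 3 or Rnaseh2b 2. There were 4 without Rnaseh2b 3 and 7 without control 2.

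**Figure D2:**
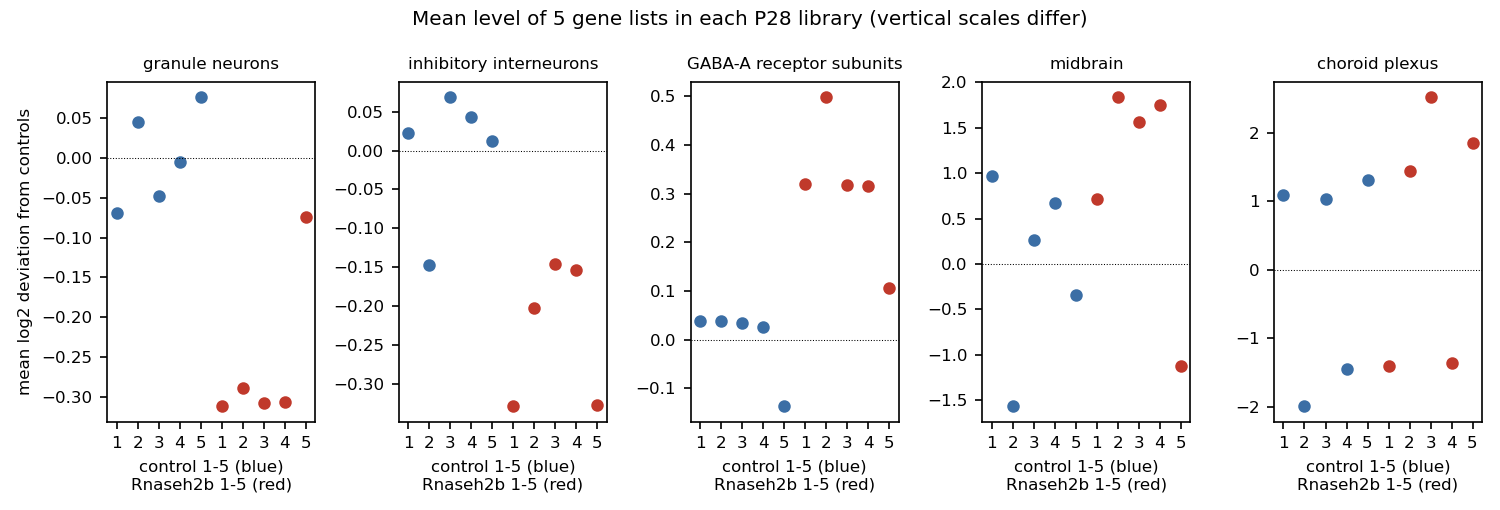
Points show the mean deviation from the controls (y axis, log2 CPM, with a range of its own in each panel) over the tested members of 5 gene lists in controls 1 to 5 (blue) and Rnaseh2b 1 to 5 (red) at P28. Granule neuron markers lay below every control in all 5 Rnaseh2b libraries, and Rnaseh2b 5, at −0.07, was only just below the lowest control.

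Granule neuron markers were mostly lower but seldom called. Of 20 tested markers 18 had negative differences, with a median of −0.26, and 2 fell, Calb2 and Grin2c. Averaged over the list, the controls deviated from their own mean by −0.07 to 0.08 log2 CPM. Rnaseh2b 1 to 5 were at −0.31, −0.29, −0.31, −0.31 and −0.07. All 5 lay below all controls, but Rnaseh2b 5 (−0.074) was only just below control 1 (−0.069). Calb2, which encodes the calcium buffer calretinin, was at 8.74, 8.65, 8.42, 8.63 and 8.75 in the controls and at 8.02, 8.15, 8.23, 8.27 and 8.48 in the Rnaseh2b libraries, where Rnaseh2b 5 passed control 3. Its difference was −0.41 (adjusted p = 0.0268, lost in 6 of the 10 fits, up to 0.0824). Grin2c, the NMDA receptor subunit of mature granule neurons, was at 9.33, 8.94, 9.22, 9.49 and 9.57 in the controls and at 8.55, 8.52, 8.70, 8.85 and 9.17 in the Rnaseh2b libraries. Controls and Rnaseh2b libraries overlapped through control 2 and Rnaseh2b 5 (−0.55, adjusted p = 0.0446, lost in 8 fits, up to 0.122).

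The choice of libraries in the fit decided how many granule genes were called. When the fit held the 10 compared libraries alone, 13 of the 20 fell. That fit called 852 of all 16530 genes lower, beside 390 in the main fit. Among the 13 were Fat2 (−0.45), Gabrd (−0.39) and Neurod1 (−0.30). Their limma adjusted p went from 0.195, 0.118 and 0.259 to 0.00888, 0.00291 and 0.0392. In the main fit with 1 library left out, 0 of the 20 were called without control 1, 4 or 5 or Rnaseh2b 1, 2 or 3. Fat2, a protocadherin gene of granule neurons, was at 10.29, 10.43, 10.27, 10.44 and 10.44 in the controls and at 9.90, 9.93, 9.84, 9.78 and 10.18 in the Rnaseh2b libraries. All 5 Rnaseh2b libraries were lower for it. Gabra6, the GABA-A receptor subunit known from mature granule neurons, differed by −0.08 (adjusted p = 0.821).

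Few Purkinje cell markers were called. Of 26 tested, Ebf2 (0.49, a transcription factor of Purkinje subsets) rose, Cacna1a (−0.31, the P/Q-type calcium channel, also in granule neurons) fell, and the median was 0.05. Cacna1a was at 9.50, 9.56, 9.59, 9.59 and 9.61 in the controls and at 9.22, 9.22, 9.29, 9.24 and 9.35 in the Rnaseh2b libraries. The groups were apart (adjusted p = 0.0345), and the call was lost in 8 of the 10 fits. That of Ebf2 (0.0309) was lost in 7. The classical Purkinje markers Calb1 (0.31, adjusted p = 0.0505) and Ppp1r17 (0.30, 0.0532) were just outside the threshold on the higher side. Without control 2, 5 Purkinje markers rose and 1 fell, beside 1282 higher and 1282 lower of all 16530 genes.

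Receptor subunits moved in both directions. Of 13 tested GABA-A receptor genes, 3 rose: Gabra5 (above), Gabrg1 (0.49) and Gabra3 (0.55), subunits that are low in mature cerebellar granule neurons. Gabrg1 was at 3.69, 3.90, 3.59, 3.72 and 3.76 in the controls and at 4.37, 4.41, 4.29, 4.17 and 3.83 in the Rnaseh2b libraries. Rnaseh2b 5 lay within the controls, and the other 4 above them (adjusted p = 0.0189). None of the 3 was called without control 5, without Rnaseh2b 2 or without Rnaseh2b 3. The call of Gabra3 was also lost without control 3 or 4 and without Rnaseh2b 1 or 4. Without control 2, 5 were called higher, in a fit that called 1282 of all 16530 genes higher. Among 23 tested glutamate receptor genes, Grik4 rose and Grik3 and Grin2c fell. Grik3, a kainate receptor subunit, was at 6.91, 6.92, 6.93, 7.17 and 7.19 in the controls and at 6.33, 6.40, 6.42, 6.52 and 6.63 in the Rnaseh2b libraries. All Rnaseh2b libraries were below all controls (−0.56 ± 0.09, adjusted p = 0.00318). Grik4, another kainate receptor subunit, was at 4.13 to 4.33 in the controls and at 4.42 to 4.62 in the Rnaseh2b libraries, which were all higher (0.26 ± 0.06, adjusted p = 0.0163).

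Among glia, 3 of 18 tested markers of astrocytes and Bergmann glia rose and 0 fell. Aqp4, the water channel of astrocyte end-feet, was at 8.59, 8.93, 8.67, 8.54 and 8.56 log2 CPM in the controls and at 9.24, 9.16, 9.23, 9.17 and 8.96 in the Rnaseh2b libraries. Control 2 was the highest control and still below every Rnaseh2b library (141% of control, 0.49 ± 0.08, adjusted p = 0.0045). Gja1, the gap junction protein connexin 43, was at 7.80, 8.07, 7.91, 7.89 and 7.78 in the controls and at 8.33, 8.28, 8.29, 8.29 and 8.03 in the Rnaseh2b libraries. Rnaseh2b 5 fell just below control 2, and the other 4 were above all controls (0.35 ± 0.07, adjusted p = 0.00874). The glutamate transporter gene Slc1a2 rose by 0.25 (adjusted p = 0.0376, lost in 7 of the 10 fits). Of 16 tested genes of reactive astrocytes 0 were called, and their median was 0.20. Of 18 tested myelin and oligodendrocyte genes 16 had positive differences, with a median of 0.13, and 0 were called higher. The 1 gene called went the other way: Cntn2, which encodes contactin-2 of the nodes of myelinated axons and is also made by granule neurons. It was at 9.37, 9.41, 9.33, 9.32 and 9.40 in the controls and at 9.13, 9.09, 9.15, 9.08 and 9.19 in the Rnaseh2b libraries, all lower (−0.24 ± 0.05, adjusted p = 0.0127).

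Microglia would keep their Rnaseh2b under a neural Cre, which was not measured in these whole-tissue samples. Few microglia markers were called at P28. Of 18 tested homeostatic microglia genes 17 had positive differences, with a median of 0.14, and 1 rose, Sall1 (0.32, adjusted p = 0.0451, lost in 8 of the 10 fits). Of 22 tested genes of phagocytic and activated microglia 2 rose, Igf1 and Lpl, and the median was 0.01. Igf1, a growth factor that neurons also make, was at 2.75, 3.03, 2.81, 2.65 and 2.64 in the controls and at 3.46, 3.53, 3.50, 3.33 and 3.12 in the Rnaseh2b libraries. All 5 were above all controls (153% of control, 0.61 ± 0.11, adjusted p = 0.00525). Lpl, a lipoprotein lipase, rose by 0.64 (adjusted p = 0.0289, lost in 5 of the 10 fits). Of 14 tested complement genes 0 were called.

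The p53 pathway was read next, since loss of RNase H2 is known to activate it. Trp53 itself differed by 0.09 (adjusted p = 0.305) and Atm by −0.12 (0.256). Of 17 tested p53 targets of cell cycle arrest and feedback 0 were called, with a median of 0.07. The 2 best known of them were Cdkn1a, the p21 inhibitor of cyclin-dependent kinases, and Mdm2, the ligase that degrades p53. Cdkn1a was at 4.21, 4.56, 4.17, 4.78 and 4.70 in the controls and at 4.17, 4.20, 4.31, 3.93 and 4.74 in the Rnaseh2b libraries, with wide overlap (−0.21, adjusted p = 0.345). Mdm2 differed by 0.03 ± 0.06 (adjusted p = 0.802).

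Of 14 tested genes on the list of p53 targets of apoptosis 2 rose, Pmaip1 and Psrc1, with a median of 0.09. Psrc1 is counted as a member of that list, and a part of it in apoptosis was not tested. Pmaip1 encodes Noxa, a BH3-only protein that promotes cell death. It was at −1.18, −0.54, −0.94, −0.66 and −1.0 log2 CPM in the controls, which is a low level, and at 0.07, 0.27, 0.39, 0.32 and 0.25 in the Rnaseh2b libraries. Every Rnaseh2b library was higher (218% of control, 1.12 ± 0.20, adjusted p = 0.00578, and 0.00442 to 0.0231 with 1 library left out). Psrc1 was at −1.47, −1.61, −1.47, −1.54 and −2.44 in the controls and at −0.50, −0.54, −0.12, −0.88 and −1.01 in the Rnaseh2b libraries. Control 5 was far below the other controls, and the call (1.10, adjusted p = 0.0269) was lost without it (0.0865) and without 4 other libraries. Bbc3, which encodes the BH3-only protein Puma, lay on the lower side, at 3.76, 2.85, 3.38, 3.60 and 3.64 in the controls and at 1.77, 2.34, 2.40, 2.79 and 2.79 in the Rnaseh2b libraries. The groups did not overlap, and control 2 was the lowest control. Its difference of −1.03 had an adjusted p of 0.0548 with all libraries and 0.0246 without control 2. Of 14 tested genes of DNA damage signalling, the checkpoint kinase gene Chek2 rose (0.58, adjusted p = 0.029, lost in 8 of the 10 fits). Of 16 tested genes of mitosis and 24 of DNA replication, 0 were called.

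The interferon response was the other pathway tied to RNase H2. Of 47 tested interferon-stimulated genes 42 had positive differences and the median was 0.32, but 1 was called. The list mean deviated from the controls by 0.01, 0.25, −0.07, 0.09 and −0.27 log2 CPM in controls 1 to 5 and by 0.17, 0.12, 0.87, 0.25 and 0.18 in Rnaseh2b 1 to 5. The other 4 Rnaseh2b libraries lay no higher than control 2, and Rnaseh2b 3 lay far above both groups. Rnaseh2b 3 was the highest of the 10 libraries in 37 of the 47 genes, and control 5 the lowest in 24. Without Rnaseh2b 3 the median was 0.16 and 0 were called.

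The 1 call was Cmpk2, which encodes a mitochondrial nucleotide kinase. It was at 3.27, 2.86, 3.08, 3.56 and 3.24 in the controls and at 3.54, 3.97, 3.74, 3.55 and 3.55 in the Rnaseh2b libraries. Control 4 lay among the Rnaseh2b libraries, and the call (0.47 ± 0.14, adjusted p at the threshold of 0.05) was lost in 8 of the 10 fits (0.0422 to 0.141). Ifit1, a protein that binds foreign RNA caps, was at 1.11, 1.37, 0.47, 0.81 and 0.68 in the controls and at 1.44, 1.30, 2.45, 1.45 and 1.35 in the Rnaseh2b libraries. Rnaseh2b 3 was far above the rest and the others lay near the highest control (0.71 ± 0.43, adjusted p = 0.295). Ifit2 differed by 0.69 (adjusted p = 0.0667, and 0.0315 without control 2), Ifit3 by 0.25 (0.659) and the ubiquitin-like Isg15 by 0.20 (0.701). The factors that carry the signal were not called: of 11 tested genes of the interferon receptor and the ISGF3 complex 0 were called, with a median of 0.10 (Irf7 0.19). Of 13 tested nucleic acid sensor genes 1 rose, the endosomal RNA receptor gene Tlr3 (0.57, adjusted p = 0.0259, lost in 7 of the 10 fits). Of 15 tested genes of class I antigen presentation 1 rose, the peptide trimming gene Erap1 (0.43, adjusted p = 0.0233, lost in 7 of the 10 fits).

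**Figure D3:**
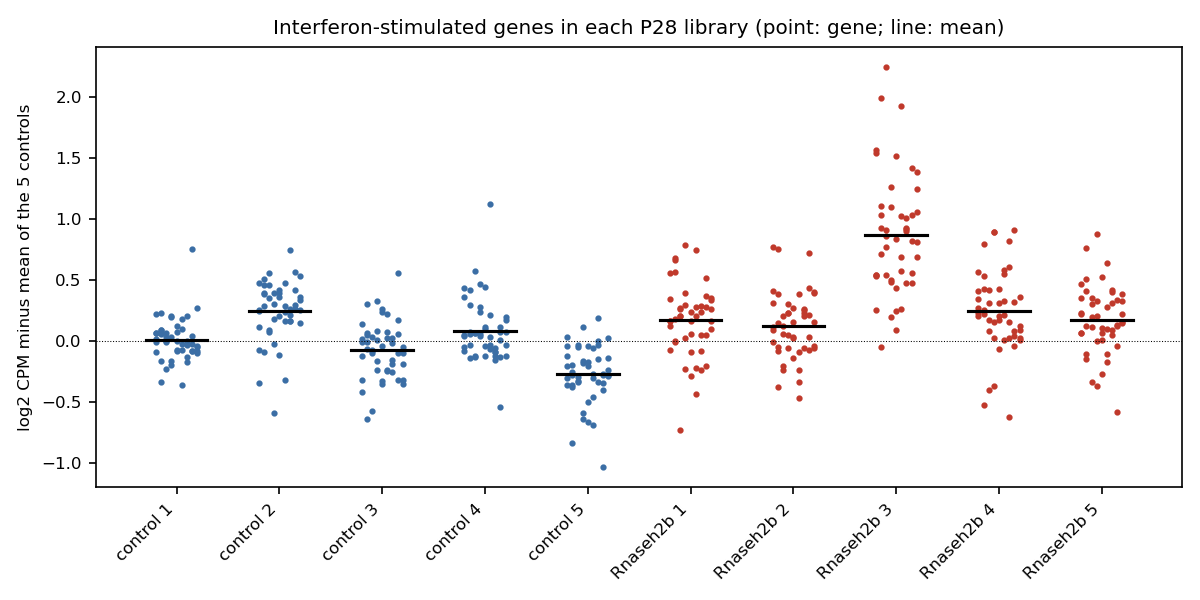
Each column of points is 1 of the 10 P28 libraries, and each point is 1 of 47 interferon-stimulated genes, as its deviation from the mean of the 5 controls (y axis, log2 CPM), with the list mean as a line. Rnaseh2b 3 stands above the other libraries with a list mean of 0.87, and control 5 is lowest at −0.27.

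The promoters of these genes are shown for the element that ISGF3 and interferon regulatory factors bind, searched as 2 copies of GAAA in the same orientation with any 2 bases between them, on both strands, in the 250 bases before the RefSeq gene start (GRCm38.p6, not the mm9 build of the submitters' processing notes). A match was found in 16 of the 37 tested genes that had an entry (43.2%), and in 936 of 27025 gene symbols overall (3.46%). Matches of the element can overlap each other. The 3 promoters below are those of Ifit1 and Gbp7, which hold 2 and 1 matches, and Cmpk2, the 1 called gene, which holds 0. Gbp7, a guanylate-binding protein gene, differed by 0.53 (adjusted p = 0.184). They are written 5′ to 3′ along the plus strand, with the matched bases in capitals, at chr19:34640639-34640888, chr3:142530086-142530335 and chr12:26468965-26469214.
Ifit1: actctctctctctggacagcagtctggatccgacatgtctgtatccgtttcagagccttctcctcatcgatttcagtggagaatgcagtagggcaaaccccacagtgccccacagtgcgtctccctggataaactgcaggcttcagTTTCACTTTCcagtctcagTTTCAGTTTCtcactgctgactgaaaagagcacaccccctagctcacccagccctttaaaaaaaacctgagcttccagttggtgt
Gbp7: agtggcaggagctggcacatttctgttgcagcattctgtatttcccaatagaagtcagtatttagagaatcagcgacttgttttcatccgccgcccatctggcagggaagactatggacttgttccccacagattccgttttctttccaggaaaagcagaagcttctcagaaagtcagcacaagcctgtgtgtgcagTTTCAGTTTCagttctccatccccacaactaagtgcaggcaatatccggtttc
Cmpk2: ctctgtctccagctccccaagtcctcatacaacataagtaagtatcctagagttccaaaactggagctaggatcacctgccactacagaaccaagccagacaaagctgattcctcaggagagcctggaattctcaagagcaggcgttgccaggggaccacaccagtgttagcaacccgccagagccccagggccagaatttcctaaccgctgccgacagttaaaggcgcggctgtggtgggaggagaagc
The median log2 difference was 0.38 over the 16 genes with a match and 0.32 over those without. A match describes these letters and is no measured binding site, and the absence of one says only that these letters are not in this window.

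Markers of tissue beside the cerebellum were measured in both groups. Of 14 midbrain markers 11 were tested, 2 were called higher (Pou4f1, 2.42, and Dmbx1, 1.03), and the median was 0.92. The median was 0.46 without control 2, 0.51 without Rnaseh2b 3, 0.54 without Rnaseh2b 2 and 0.58 without Rnaseh2b 4, and both calls were each lost in 7 of the 10 fits (limma adjusted p = 0.0487, up to 0.132, for Pou4f1 and 0.0374, up to 0.11, for Dmbx1). Their summed level was 57.8 to 89.7 CPM in the controls and 63.5 to 111 CPM in the Rnaseh2b libraries, and no member was at 0 reads in all 10 libraries. Of 13 choroid plexus markers 0 were called, with a median of 0.59, which single libraries moved. Leaving out control 2 or control 4 gave 0.15 or 0.30, and leaving out Rnaseh2b 3 or 5 gave 0.25 or 0.39, whereas leaving out Rnaseh2b 1 or 4 raised it to 0.94 or 0.98. Their summed level was 185 to 1083 CPM in the controls and 235 to 2807 CPM in the Rnaseh2b libraries. Ttr, the most abundant choroid plexus transcript, was at 8.81, 1.56, 8.69, 3.39 and 9.16 log2 CPM in the controls and at 3.64, 9.24, 10.71, 3.26 and 10.14 in the Rnaseh2b libraries. It was high in 3 libraries and low in 2 of each group. Of 13 tested markers of meninges and fibroblasts 1 rose, the growth factor gene Igf2. Igf2 was at 6.83, 6.89, 7.03, 6.69 and 6.75 in the controls and at 7.33, 7.50, 7.62, 7.22 and 7.36 in the Rnaseh2b libraries, all of them higher (148% of control, 0.57 ± 0.09, adjusted p = 0.00374). The summed meningeal level was 284 to 422 CPM in the controls and 391 to 456 CPM in the Rnaseh2b libraries. The part of these tissues in the differences above was not tested. With the midbrain mean as a covariate, also added after the data were seen, 1761 genes were called, and of the 21 interneuron markers 7 were called lower and 1 higher (median −0.34). With both covariates 102 genes were called, and 3 interneuron markers lower (median −0.19).

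The called genes were then looked up in the 2 comparisons that share no library with this one. On the Atm background 61% of all genes tested were called, 30% higher and 31% lower. Of the 471 genes higher at P28, 460 had the same sign there (97.7%) and 439 were called in the same direction (93.2%), with a median of 0.80. Of the 390 lower genes 386 had the same sign (99.0%) and 370 were called (94.9%), with a median of −0.63. There 4 of the 861 were called in the opposite direction. The midbrain markers also differed in that comparison without overlap, with a mean deviation of −2.09 to −0.04 log2 CPM in the Atm libraries and 2.41 to 3.25 in the Rnaseh2b/Atm libraries. With the midbrain mean as a covariate 398 of the 471 (84.5%) and 343 of the 390 (87.9%) were called in the same direction, beside 17.8% of all genes called higher and 16.7% lower in that fit.

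At 9 weeks, 20.2% of all genes tested were called, 10.6% higher and 9.57% lower. Of 449 higher genes measured at that age 419 had the same sign (93.3%, against 50.5% of all genes) and 224 were called (49.9%). Of 369 lower genes 346 had the same sign (93.8%, against 49.5%) and 148 were called (40.1%), and 0 were called in the opposite direction. The 9-week libraries fall into numbers 11 to 16 and 50 to 58 in their labels, and for the higher genes the same-sign shares were 88.0% and 89.5% within these sets. For the lower genes they were 93.5% and 85.6%. Called in the same direction within these sets, which hold fewer samples, were 26.5% and 4.7% of the higher genes. All genes called higher there were 4.0% and 0.4%. For the lower genes these shares were 24.7% and 3.5%, beside 3.2% and 0.2% of all genes. The calls from all 9-week libraries rest on a spread that is underestimated, as described under processing. In the same direction in all 3 comparisons, 355 genes were called, 212 higher and 143 lower, with the same limit on the 9-week calls.

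**Figure D4:**
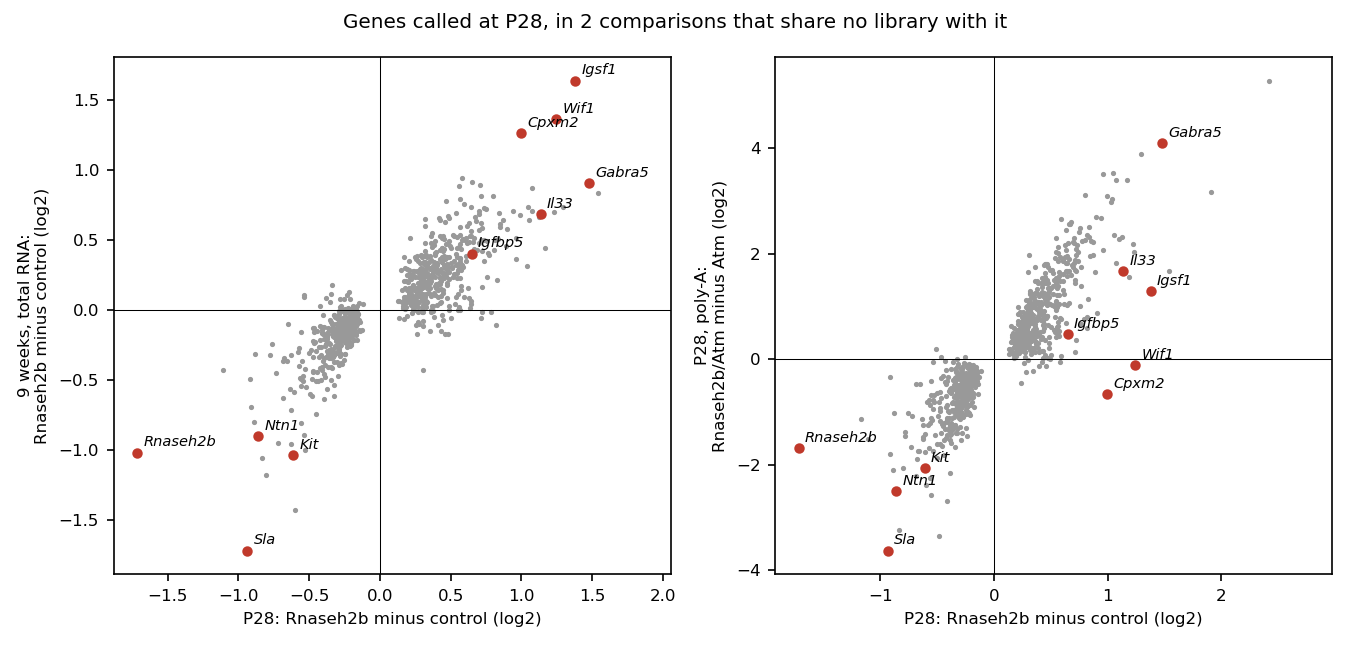
Each point is 1 called gene (red, named genes), with its log2 difference between Rnaseh2b and control at P28 (x axis) and that in Rnaseh2b against control at 9 weeks (left, y axis, 449 higher and 369 lower genes measured) or in P28 Rnaseh2b/Atm against Atm (right, y axis, 861 genes). Most points lie at the lower left and upper right, and Wif1 and Cpxm2 are above 0 on the left and at −0.12 and −0.66 on the right.

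The size of the change differed with the Atm label. A test of the difference between the 2 P28 effects called 6234 genes (37.7%), and 2637 with the midbrain mean as a covariate. Kit fell by 2.06 on the Atm background and by 0.61 without it, a difference of effects of −1.45. Sla (−3.63 against −0.94), Ntn1 (−2.50 against −0.86), Trim67 (−1.74 against −0.54) and Hkdc1 (−3.24 against −0.84) also fell further there, with differences of effects of −2.69, −1.64, −1.20 and −2.41. At 9 weeks they were lower by log2 differences of −1.03 for Kit, −1.72 for Sla, −0.90 for Ntn1, −0.89 for Trim67 and −1.06 for Hkdc1. The contrary held for 2 rising genes. Wif1 was higher by 1.24 at P28 and 1.36 at 9 weeks, and differed by −0.12 on the Atm background (limma adjusted p = 0.682), a difference of effects of −1.36 (adjusted p = 0.00264). Cpxm2 was higher by 0.998 and 1.26 and lower by 0.66 on the Atm background, a difference of effects of −1.65. Aqp4 was higher by 0.49 and 0.46 and differed by 0.01 on the Atm background (difference of effects −0.48, adjusted p = 0.00374).

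The gene lists were set side by side in the same 3 comparisons. Of all genes tested, 2.85% were called higher at P28, 10.6% at 9 weeks and 30% on the Atm background. Called lower were 2.36%, 9.57% and 31%. Of the interferon-stimulated genes 1 of 47 was called at P28, 33 of 42 were called higher at 9 weeks with a median of 0.53, and 45 of 47 on the Atm background with a median of 1.14. Homeostatic microglia genes were called higher in 1 of 18, 8 of 17 and 16 of 18, and complement genes in 0 of 14, 6 of 10 and 13 of 14. Granule neuron genes were called lower in 2 of 20 at P28, 13 of 20 at 9 weeks and 18 of 20 on the Atm background, where the median was −1.54. Interneuron markers were called lower in 7 of 21 at P28, 10 of 21 at 9 weeks and 10 of 21 on the Atm background. Called higher were 0, 3 and 7 of them, and the 7 of 21 on the Atm background are near the 30% of all genes called higher there. The difference between the ages was not tested, since the P28 libraries were poly-A selected and the 9-week libraries were made from total RNA.

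**Figure D5:**
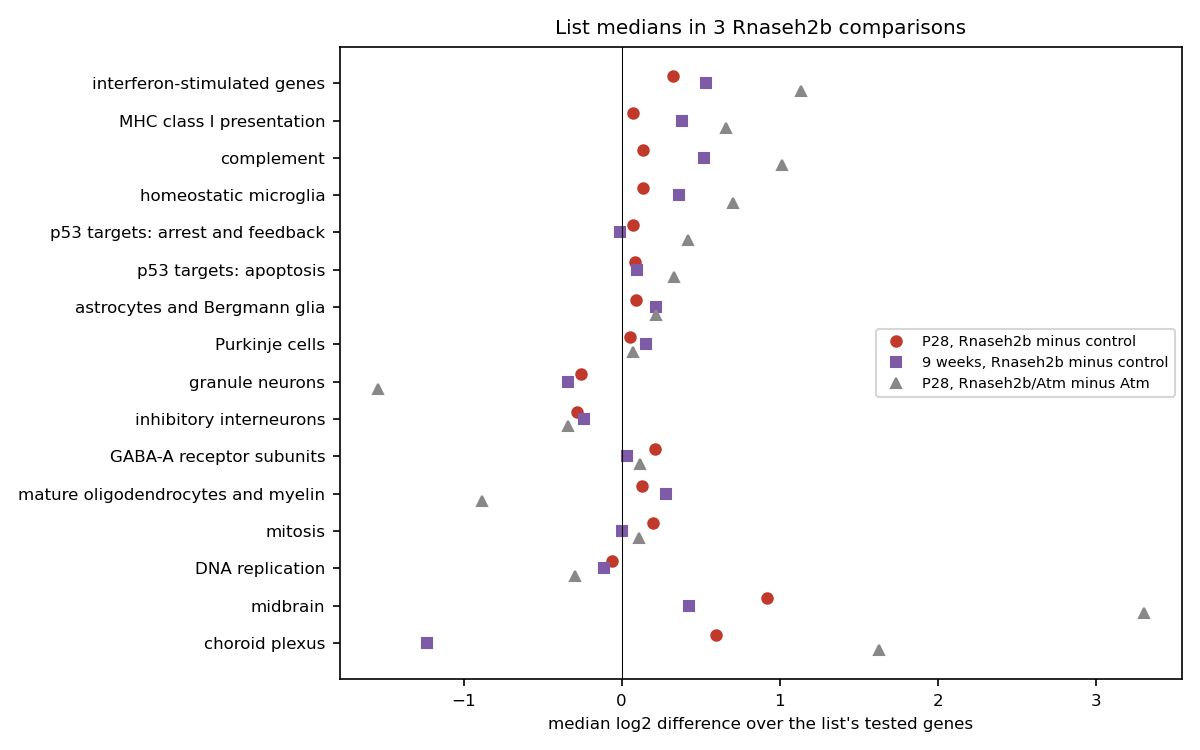
For each gene list (rows) the median log2 difference over its tested genes (x axis) is shown for P28 Rnaseh2b minus control (circles), 9 weeks Rnaseh2b minus control (squares) and P28 Rnaseh2b/Atm minus Atm (triangles). Interferon-stimulated genes are at 0.32, 0.53 and 1.14, and granule neuron markers lie below 0 in all 3.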

How the data were processed

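RNA of whole mouse cerebellum was measured by sequencing. The mm9 build and the tools STAR, BWA, Trim Galore, HTSeq and limma are named in the submitters' processing notes. Their versions, the step each one did and the strand setting are not given in the sources used here. The labels' protocols name TRIzol, a stranded total RNA kit and a HiSeq instrument, and mark the P28 RNA as poly-A. Tests ran on the log2 CPM that the authors deposited, from which whole read counts were recovered, with 100% of values within 0.01 of a whole number. The authors' FPKM values were a further scale at P28. At 9 weeks the means of library numbers 11 to 16 and 50 to 58 were equal for all 17827 genes (largest difference 3.1e-09 log2 CPM), so a difference between these sets had been taken out of the deposited values and the spread is underestimated. The FPKM table the authors deposited for that age holds 30976 values below 0, so it is a shifted score and not plain FPKM. These were set to 0.

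Genes with at least 1 CPM in 5 P28 libraries (16530 of 19432) or 7 libraries at 9 weeks were tested with limma 3.58.1 (limma-trend) in R 4.3.3, on all 20 P28 libraries or all 14 at 9 weeks, with no covariate. P-values were adjusted by Benjamini-Hochberg over all genes tested, and a call is an adjusted p below 0.05. SE is limma's, and the percentage of control is 2 to the power of the log2 difference. The fit was tested on simulated data. Genes were named if among the 15 largest rises or falls with groups apart and a mean of at least 1 log2 CPM, the 10 smallest adjusted p, or a member of 42 lists. Members and lists were chosen with earlier results of these data known, so the lists are no independent support. The number of columns that belong to no sample was 0. Figures used Python 3.11.15 and matplotlib 3.10.9. Promoter sequences are RefSeq's. Some members of the lists are counted but not reported here by name.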

Additional observations from a re-analysis of the deposited data

Results flagged for a closer look

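In groups of 5, a library was set out where its gap to the nearest other library exceeded 0.71 of the group's range. This held 27 times in 274 groups of values tested (9.9%), and chance alone gives about 1 in 20. Among the controls, control 2 was the highest for Atm (4.94 log2 CPM), Tlr3 (3.26), Erap1 (3.53) and Ccng1 (5.72) and the lowest for Igsf1 (1.93) and Bax (4.72), control 3 the highest for Igfbp5 (8.55), and control 5 the lowest for Isg15 (−0.33) and Psrc1 (−2.44). Among the Rnaseh2b libraries, Rnaseh2b 1 was the highest for Atm (4.89) and the lowest for Sorcs3 (4.14), Rnaseh2b 3 the highest for Ifit1 (2.45), and Rnaseh2b 5 the lowest for Gja1 (8.03) and the highest for Neurod1 (8.89).

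For list means, as deviations from the controls in log2 CPM, control 2 stood apart for RNase H enzymes (−0.03), astrocytes and Bergmann glia (−0.06), inhibitory interneurons (−0.15), glutamate receptor subunits (−0.19) and stress genes (−0.17). Control 3 did so for p53 targets of apoptosis (−0.07) and unipolar brush cells (0.25), and control 5 for GABA-A receptor subunits (−0.14). Rnaseh2b 3 stood apart for DNA damage signalling (−0.01) and interferon-stimulated genes (0.87), and Rnaseh2b 5 for granule neurons (−0.07), clock genes (−0.24) and catecholamine genes (−0.07).

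The Rnaseh2b effect at P28 differed with the Atm label, by a test of the difference itself, for 6234 genes. Among the named genes the difference of effects was −1.65 for Cpxm2, −1.36 for Wif1, −1.45 for Kit, −2.69 for Sla, −1.64 for Ntn1, −2.41 for Hkdc1, −1.20 for Trim67 and 2.62 for Gabra5.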

How the results depend on the processing

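Of the 63 named genes called at P28, 17 were called under all 23 alternatives: Rnaseh2b, Igsf1, Wif1, Il33, Cpxm2, Igfbp5, Sla, Ntn1, Hkdc1, Asgr1, Kit, Trim67, Nkain1, Aqp4, Tfap2a, Grik3 and Igf2. No named gene was counted as reversed under any of the 23, but some list medians near 0 changed sign. With both covariates that of the interferon receptor and ISGF3 genes went from 0.10 to −0.04 and that of class I presentation from 0.07 to −0.02. With the GC index that of DNA damage signalling went from 0.03 to −0.03. The 861 calls became 1532 (680 higher, 852 lower) when the fit held the 10 libraries alone, of which 789 were among the 861, 1761 with the midbrain mean as a covariate, 1514 with an index of the GC content of each library's genes (88.4% of genes tested had a value), 102 with both covariates, and 2518 without control 2 and Rnaseh2b 5. The last 4 alternatives were chosen after seeing the data, and the cause of the changes was not tested. Leaving out 1 library gave 187 to 2564 calls, 9512 to 10272 on the Atm background, 5630 to 6857 for the difference of effects, and 12 to 77 over the gene lists. The 38 list members called became 82 with the 10 libraries alone, 60 with the midbrain mean, 9 with both covariates and 85 without control 2 and Rnaseh2b 5. On the Atm background 10082 calls became 5700 with the midbrain mean and 5253 with both, and the 6234 differences of effects became 2637 with the midbrain mean, 7800 with the GC index and 4283 with both. With FPKM plus 0.1, 65.8% of 834 calls were higher, against 54.7% of the 861. Another unit, filter, model or covariate gave 722 (no filter) to 981 (a minimum of 5 CPM) calls, with voom on the recovered reads at 952, or at 925 with TMM factors.

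With the replicate number as a block, 785 genes were called at P28 (448 higher, 337 lower), 10230 on the Atm background and 6409 for the difference of effects. The numbers did not pair the samples: deviations of same-numbered libraries correlated at 0.07, −0.07, 0.18, 0.35 and 0.45, and 2 of 5 controls correlated best with their own number. At 9 weeks the 3042 calls became 1390 with the replicate block, 1084 in library numbers 11 to 16 and 90 in numbers 50 to 58, which hold fewer samples. Depth limits genes near 1 CPM most in the 3 shallowest libraries, and precision is set by 5 libraries per group.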
